A study of Mus musculus with 6 samples.

Results

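The cells described here are the capillary lymphatic endothelial cells among endothelial cells sorted from mouse dorsal skin. They are 922 of the 12093 cells that passed the endothelial gate, and of 27418 cell barcodes in all. A barcode passed the gate with 200 to 5000 detected genes, under 10% mitochondrial UMIs, at least 1 UMI of the endothelial gene Pecam1 and none of the leukocyte gene Ptprc (a UMI marks 1 captured RNA molecule). A gated cell was then scored on 6 sets of 5 genes, by how many genes of the set had a UMI. It was taken as a capillary lymphatic cell when its score on Lyve1, Mmrn1, Reln, Flt4 and Fndc1 was at least 2 and above its score on every other set. The same rule gave 1565 collecting lymphatic cells and 7109 blood endothelial cells, which serve as comparison.

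Lymphatic capillaries are blind-ended vessels that take up interstitial fluid, macromolecules and immune cells from tissue. Their endothelial cells are joined loosely, have a sparse basement membrane and secrete the chemokine Ccl21, which guides dendritic cells into the vessel. They drain into collecting lymphatics, which carry valves and a muscle coat. In skin they run close to the hair follicles, which cycle between rest (telogen) and growth (anagen). Alk1, encoded by Acvrl1, is an endothelial receptor for bone morphogenetic proteins that signals through SMAD proteins.

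There were 3 groups of 2 libraries, with 1 mouse per library. WT telogen mice (postnatal day 20) and WT anagen mice (postnatal day 32) carried tdTomato, Cdh5-CreERT2 and Krt14-H2BGFP on a C57BL/6;CD1 background. Alk1KO telogen mice (postnatal day 25) carried Alk1 flox/flox, tdTomato and Cdh5-CreERT2 on C57BL/6. All received tamoxifen at 200 μg/g on day 17, and tdTomato+ cells of dorsal skin were sorted and sequenced from the 3′ end. Cdh5, the gene of VE-cadherin, drives the recombinase, so that recombination is directed to cells that express it and their descendants. The files also held 2849 cells with UMIs of the leukocyte gene Ptprc and none of Pecam1. Of these, 4.98% held a Cdh5 UMI, against 74.5% of the capillary lymphatic cells. A missing UMI does not show that a cell and its ancestors lacked Cdh5, so the purity of the sort was not tested. Strain, age and the Krt14-H2BGFP allele change together with Alk1 and cannot be told apart from it. The paper takes its Alk1KO cells from an earlier dataset of its authors, so any difference in preparation cannot be told apart from Alk1 either. The genotype field of the Alk1KO libraries also reads wild type. Both comparisons below share the WT telogen libraries.

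The libraries held between 10615358 and 43317677 UMIs in 2283 to 6643 barcodes, and the 2 Alk1KO libraries were the smallest. Capillary lymphatic cells numbered 88 and 81 in WT telogen, 97 and 80 in WT anagen, and 263 and 313 in Alk1KO telogen. Their summed UMIs were 483492, 350808, 567823, 379594, 1513185 and 1780230 in the same order, so that the Alk1KO values rest on the most counts. Median UMIs per cell ran from 4190 to 5834. Libraries of a pair shared 2 to 13 cell barcodes, but none of them among capillary lymphatic cells. The libraries also differed in sex-linked RNA. Xist, which silences an X chromosome in female cells, was at 1593, 0, 0, 0, 901 and 918 CPM in these cells (a gene's counts scaled to a common library total, for comparing libraries), and the Y-linked Ddx3y at 0, 111, 79.3, 81.7, 0 and 0 CPM. WT telogen 1 and both Alk1KO libraries thus carried Xist and the other 3 libraries carried Ddx3y. Sex was therefore unbalanced in both full comparisons, as WT telogen held 1 library of each kind and each other group 2 of the same kind. No term for sex was fitted. Sex cannot be told apart from Alk1 at all when WT telogen 1 is left out. Nor can it be told apart from stage when WT telogen 1 is the single telogen library. WT anagen 1 stood apart in the class I histocompatibility gene H2-D1, with 4207 CPM against 699 to 1676 CPM in the other libraries, and it did so in collecting lymphatic (3838 CPM) and blood endothelial cells (3601 CPM) too.

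The cells were chosen by their UMIs of the set genes, so these values are given as a description. Of the 922 cells, 98.2% held a UMI of Mmrn1, 91.0% of Reln, 84.3% of Flt4, 73.8% of Lyve1 and 63.4% of Fndc1. At the threshold, 57 cells entered with a score of 2 against 1 on another set and 4 cells against 0, while 127 cells with a score of 2 were left out because another set scored as high, and 484 because another set scored higher. A further 403 cells with a score of 3 or more also tied with or fell below another set. Most chosen cells held some RNA of other sets, and 15 of 922 held none. The most frequent of these were Nsg1 (72.1% of cells), Lrg1 (71.7%), Gpihbp1 (58.5%) and Stmn2 (50.8%).

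Lymphatic genes outside the sets served to check the label. Prox1, the transcription factor that specifies lymphatic endothelium, had a median of 518 CPM over the 6 libraries, against 1042 CPM in collecting lymphatic and 12.1 CPM in blood endothelial cells. Pdpn, a membrane glycoprotein of lymphatic endothelium, was at 323, 114 and 4.96 CPM. The chemokine gene Ccl21a was the highest of these at 17754, 1002 and 28.2 CPM. Medians of Fgl2, Fxyd6, Tbx1 and Thy1 were 3536, 818, 182 and 442 CPM, against 82.1, 38.8, 6.30 and 37.9 CPM in blood endothelial cells. Sox18, also on the list of lymphatic identity genes, did not set the classes apart, at 216 against 221 CPM, and the blood endothelial marker Emcn was at 300.2 against 527 CPM. Flt1, the blood-endothelial receptor of VEGF, went the other way with 10.3, 20.5 and 746 CPM, while the pan-endothelial Cdh5 was at 369, 321 and 779 CPM. After every cell was thinned to 1500 UMIs, Prox1 was detected in 52.6% of capillary lymphatic, 66.6% of collecting lymphatic and 1.41% of blood endothelial cells, and in 0.48% of Ptprc+ cells, which should lack it. Median depths were 5140, 4786, 5806 and 11578 UMIs per cell before thinning, and 46 capillary lymphatic cells were too shallow to enter. The scavenger receptor gene Stab2, also a lymphatic marker, stayed at or below 2.9 CPM in every library, and Marco was at 0 in all of them, so neither was informative.

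**Figure D1:**
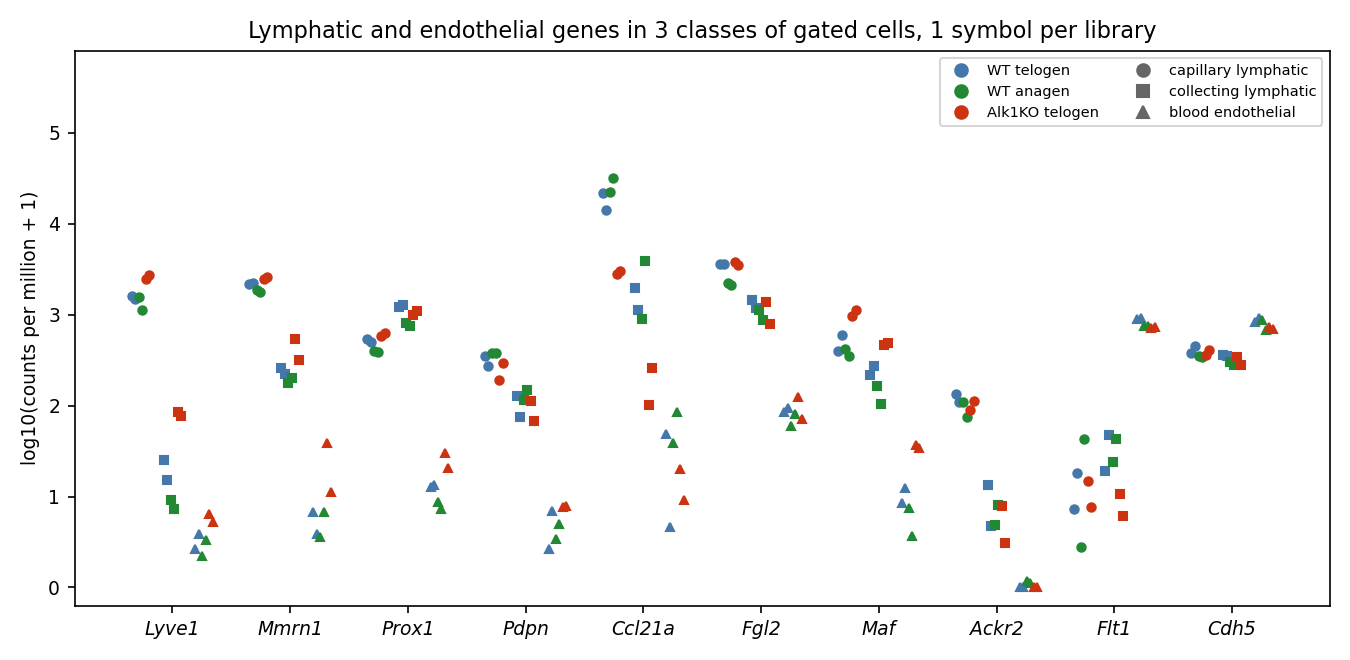
Lymphatic and endothelial genes in capillary lymphatic (circles), collecting lymphatic (squares) and blood endothelial cells (triangles); each symbol is the summed counts of 1 library as log10(CPM + 1), with no error bar. Lyve1 and Mmrn1 were used to choose the cells; Prox1 was higher in the squares than in the circles, and Flt1 was highest in the triangles.

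Beyond the sets, the genes that set the cells apart most steadily from blood endothelium, by the 15 highest of the order, included Ccl21a, Pard6g (a cell-polarity protein), Fgl2 (a secreted fibrinogen-like protein), the transcription factors Maf and Prox1, Sema3d (a guidance cue) and Il7 (a T-cell survival cytokine). Fgl2 had 2108 to 3789 CPM here against 59.3 to 123 CPM in blood endothelial cells. Il7 had 87.6 to 192 CPM against 0 to 2.09 CPM. Against collecting lymphatic cells the order was led by Ccl21a, Serpina3n (a protease inhibitor), Piezo2 (a mechanically gated channel), Ackr2 (a receptor that scavenges inflammatory chemokines), Creb5 and Adgrg3. Ackr2 had 73.8 to 134 CPM, against 2.06 to 12.3 CPM in collecting lymphatic and at most 0.189 CPM in blood endothelial cells. Piezo2 had 100 to 191 CPM, against 5.56 to 15.5 CPM in collecting lymphatic cells. These orders follow the lowest ratio over the 6 libraries and describe how the classes were drawn, so they were not tested.

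The share of gated cells that were capillary lymphatic was 7.48% and 6.54% in WT telogen, 2.95% and 2.09% in WT anagen, and 21.7% and 23.2% in Alk1KO telogen. The groups did not overlap in this share. The mean was 7.01% ± 0.66 (SD, n = 2) at WT telogen and 2.52% ± 0.61 at WT anagen, a difference of -4.49 percentage points. The exact two-sided permutation test gave p = 0.333, the smallest p that 2 libraries against 2 allow. Some genes of the score shifted between these stages. Reln had 649 and 539 CPM at telogen and 437 and 432 CPM at anagen. Mmrn1 had 2165 and 2195 CPM and then 1851 and 1755 CPM. The groups overlap in Lyve1, Flt4 and Fndc1. The part of these genes in the stage shares was not tested. As a share of all cells that passed the filters on genes and mitochondrial UMIs, before the gate, capillary lymphatic cells were 2.78% and 1.73% at WT telogen and 2.26% and 1.57% at WT anagen, where the groups overlap (difference -0.34 percentage points, exact two-sided permutation p = 0.667), and 15.4% and 16.0% in Alk1KO. Among lymphatic cells only, capillary cells were 24.5% and 21.6% at WT telogen and 18.9% and 21.6% at WT anagen. The shares of Alk1KO, with a mean of 22.4% ± 1.03 (SD, n = 2), were not tested, because Lyve1 and Reln, which count toward the score, were themselves higher there, by 0.72 and 1.01 on the log2 scale. Among lymphatic cells of Alk1KO, capillary cells were 68.3% and 64.4%. A sort yields shares, so that more capillary cells and fewer of the others cannot be told apart. In collecting lymphatic cells the genes of the capillary set summed to 476 and 443 CPM in WT telogen and 1144 and 870 CPM in Alk1KO. Cells that entered the capillary class because these genes were higher cannot be told apart from either.

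The comparison of anagen with telogen asks how capillary lymphatics change with hair follicle growth. Counts were summed per library over the cells and tested with edgeR's quasi-likelihood test, and a call needed a fold over 1.3 and an adjusted p (Benjamini-Hochberg) below 0.05. Of 5660 genes tested, 0 were called higher (0%) and 2 lower (0.0353%) at anagen, and 586 had an unadjusted p under 0.05. DESeq2 called 12 higher and 2 lower, and leaving out any 1 library raised the calls (17 to 115 higher and 12 to 56 lower). Here and below, a fit without 1 library sets a single library against 2, takes the spread from the remaining pair and assumes that the lone library varies like it, so a gene that passes only in such a fit is not called. Cxcl2 (GRCm38 chr5:90903871-90905938, plus strand), a neutrophil-attracting chemokine, had 277 and 342 CPM at telogen and 31.7 and 31.6 CPM at anagen. The log2 fold change was -3.18 ± 0.24 (SE; edgeR adjusted p = 0.0031). At telogen 17 of 88 and 19 of 81 cells held a Cxcl2 UMI, and at anagen 12 of 97 and 5 of 80 did. The cells held 254 Cxcl2 UMIs at telogen and 30 at anagen, over both libraries of a stage. The richest cell of each library held 62 and 50 of them at telogen but only 5 and 5 at anagen. Both the share of positive cells and the highest content were thus lower. A large part of the telogen counts came from 1 cell per library. Neat1 (chr19:5824708-5845478, minus strand), a long noncoding RNA that scaffolds nuclear paraspeckles, had 1640 and 1725 CPM at telogen and 583 and 614 CPM at anagen, a log2 fold change of -1.41 ± 0.15 (edgeR adjusted p = 0.0296). The 5 nuclear-retained RNAs listed, Neat1 among them, summed to 34474 and 38420 CPM at telogen and 28003 and 27079 CPM at anagen. Malat1, the most abundant, had 32702 and 36547 CPM and then 27276 and 26347 CPM (-0.28 ± 0.14, adjusted p = 0.511). The part of RNA quality in these values was not tested. Both genes lost their call (edgeR adjusted p = 0.181) when cells holding UMIs of fibroblast, mural or perineurial markers were left out, with changes of -3.54 and -1.27 on the log2 scale in the cells that stayed.

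**Figure D2:**
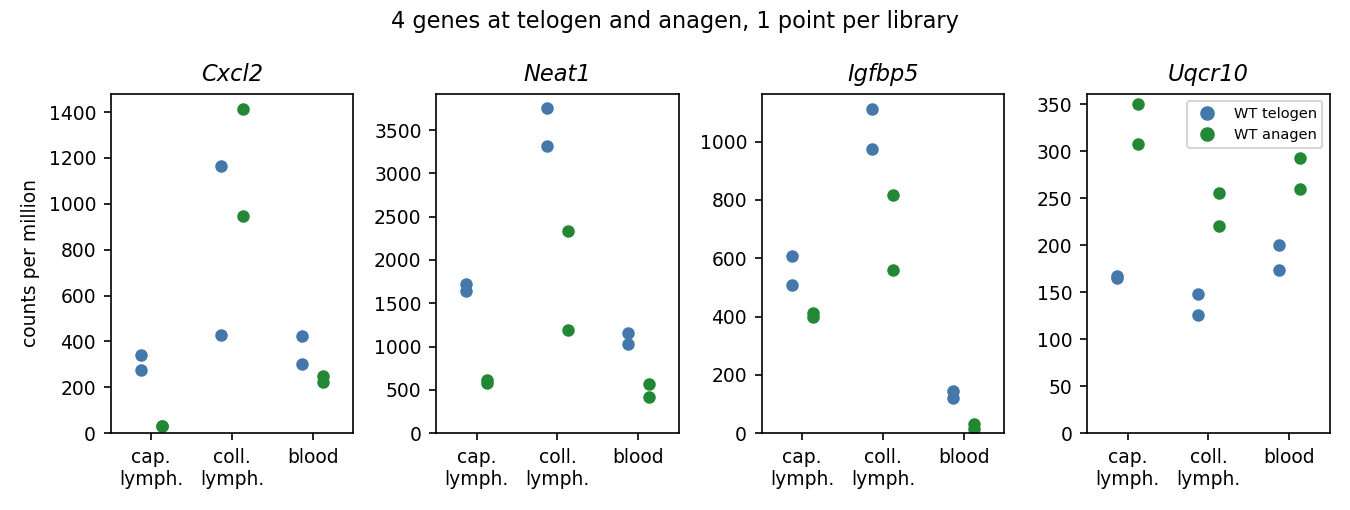
Cxcl2, Neat1, Igfbp5 and Uqcr10 in CPM (linear axes from 0) in capillary lymphatic, collecting lymphatic and blood endothelial cells at telogen and anagen; each point is 1 library, with no error bar. Cxcl2 fell from 277 and 342 CPM to 31.7 and 31.6 CPM in capillary lymphatic cells, while collecting lymphatic cells held 426 to 1412 CPM at both stages.

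The fall of Cxcl2 was larger here than in other vessels of the same libraries. Collecting lymphatic cells had 426 and 1167 CPM at telogen and 1412 and 947 CPM at anagen, and blood endothelial cells 303 and 422 CPM at telogen and 223 and 248 CPM at anagen. The response of the capillary lymphatic cells minus that of collecting lymphatic cells was -4.08 ± 0.38 (SE) on the log2 scale (edgeR interaction test, adjusted p = 8.3e-06), and minus that of blood endothelial cells it was -2.69 ± 0.28 (adjusted p = 4.4e-05). Over all genes, 3 of 8663 (0.0346%) differed in their stage response from collecting lymphatic cells and 15 of 11212 (0.134%) from blood endothelial cells. The other two of the 3 were the gene model Gm13889 and the pericyte gene Rgs5, of which 65 of the 66 UMIs in WT telogen 2 came from 1 cell. Without WT telogen 2 the Rgs5 difference was -0.94 (adjusted p = 0.995). From blood endothelial cells, the largest positive differences were in the sodium channel gene Scn3a, in Igfbp5 (an insulin-like growth factor binding protein) and in Gucy1b1 (a subunit of the nitric oxide receptor). These genes were called for falling less here: Igfbp5 had 509 and 607 CPM at telogen and 400 and 411 CPM at anagen, against 122 and 146 CPM and then 30.7 and 13.5 CPM in blood endothelial cells. All 3 lost the call without the cells holding stromal marker UMIs (differences of -0.23, 0.89 and 0.65, adjusted p = 1). Scn3a also lost it with DESeq2 (2.36, adjusted p = 0.231) and without cells holding immune UMIs (2.38, edgeR adjusted p = 0.0514). Leaving out WT telogen 1 removed the call of Scn3a (1.93), and leaving out WT telogen 2 that of Gucy1b1 (1.95). Cd14, a co-receptor for bacterial lipopolysaccharide, was the other gene with a negative difference (-1.99). It left the call with DESeq2 (-2.01, adjusted p = 0.501). The same held without either WT telogen library or WT anagen 2 (-1.61, -2.40 and -1.64).

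No other gene passed the test at anagen, so the gene lists are described by their counts and medians, beside a median log2 fold change of 0.01 over all genes tested. Of 76 tested genes of oxidative phosphorylation, 68 were higher at anagen with a median log2 fold change of 0.39, and 29 had an unadjusted p under 0.05. Ribosomal protein genes, a list counted after the values were seen, had 71 of 77 higher with a median of 0.35, and 35 had an unadjusted p under 0.05. The smallest adjusted p of the oxidative phosphorylation list was that of Uqcr10, a subunit of respiratory complex III, with 168 and 165 CPM at telogen and 308 and 350 CPM at anagen (log2 fold change 1.06 ± 0.18, edgeR adjusted p = 0.126). It was not called, but it passed with all 6 libraries in one fit (1.06, adjusted p = 0.0442), with no filter on low counts (1.06, adjusted p = 0.0033) and in the 4 fits with a single library in one group (adjusted p between 0.0171 and 0.0458). Atp5j2, Romo1 and Cox6c had changes of 0.90, 1.06 and 0.75 (adjusted p = 0.141, 0.185 and 0.234). All 3 passed with no filter on low counts (adjusted p = 0.0134, 0.0099 and 0.0344), and Romo1 also with all 6 libraries in one fit (adjusted p = 0.0473). Their groups did not overlap, which was so for 42% of all genes tested in this comparison. The 16 tested lymphatic identity genes had a median of 0.08, and none was called. Among them Fgl2 had 3551 and 3592 CPM at telogen and 2214 and 2108 CPM at anagen (-0.64 ± 0.15, adjusted p = 0.257). Fgl2 passed with scaling by library size (-0.73, edgeR adjusted p = 0.0387) and with no filter on low counts (-0.63, adjusted p = 0.0495). Sox18, a transcription factor upstream of Prox1 in development, had 176 and 96.9 CPM and then 319 and 274 CPM (1.17 ± 0.28, adjusted p = 0.275), and passed with no filter on low counts (1.18, adjusted p = 0.00076). With WT telogen 2 as the single telogen library the change was 1.73 (adjusted p = 0.000427), and with WT anagen 1 as the single anagen library 1.31 (adjusted p = 0.000268). Prox1 itself had a change of -0.32 ± 0.17 (adjusted p = 0.541).

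Inflammatory cytokines and their regulators had a median of -0.44 over 12 tested genes at anagen, of which Cxcl2 was the call. Nfkb1, a subunit of NF-kappaB, had 254 and 265 CPM at telogen and 153 and 140 CPM at anagen (-0.74 ± 0.19, adjusted p = 0.296). Its feedback inhibitor Tnfaip3 had 93.1 and 68.4 CPM and then 37.0 and 23.7 CPM (-1.29 ± 0.34, adjusted p = 0.3; 0.0344 with no filter on low counts and 0.0087 with WT telogen 1 as the single telogen library). Antigen presentation genes had a median of 0.98, with 14 of 15 higher at anagen, and rested on 1 library. H2-K1, a class I heavy chain, had 600 and 904 CPM at telogen and 2036 and 693 CPM at anagen, and Cd74, the class II invariant chain, had 37.2 and 74.1 CPM and then 255 and 5.27 CPM. The groups overlap in both. Without WT anagen 1, the library high in class I RNA in all 3 cell classes, the median of the antigen presentation list was -0.22, and that of the interferon response list moved from 0.56 to -0.02. With WT telogen 1 as the single telogen library, or WT anagen 1 as the single anagen library, 9 and 11 of the 15 antigen presentation genes had an adjusted p below the threshold, where the spread came from the other pair alone. The ER chaperone list had a median of -0.21, which was -0.0063 without the cells holding stromal marker UMIs. Fibroblast markers moved with the stage, with a median of -1.50 over 5 tested genes and summed levels of 441 and 433 CPM at telogen and 65.2 and 266 CPM at anagen. The part of such RNA in the stage values was not tested beyond leaving those cells out.

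The comparison of Alk1KO with WT telogen asks what the loss of Alk1 does to these cells. The rule genes Lyve1 and Reln were higher in Alk1KO. The mean score of collecting lymphatic cells on the capillary set was 1.27 and 1.21 in WT telogen and 1.75 and 1.60 in Alk1KO. Which cells the rule chose can therefore differ between the groups. The part of this in the changes below, Ccl21a among them, was not tested. Of 8407 genes tested, 378 were called higher (4.5%) and 497 lower (5.91%) in Alk1KO, and the median log2 fold change over all genes was 0.02. Among genes with at least 50 counts in each group, a selection made after the values were seen, the largest rises included Tsc22d3 (a glucocorticoid-induced leucine zipper protein) and Errfi1 (a feedback inhibitor of the EGF receptor). The largest falls were in the monocyte-attracting chemokine gene Ccl2, the interferon-stimulated Isg15 and Tppp3, with Ccl21a among the 12 largest. DESeq2 called 161 higher and 230 lower. Without WT telogen 1, 200 rose and 230 fell, and without Alk1KO 1, 174 rose and 207 fell. Direction was the same for all of the 875 called genes that were tested under each of these.

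Acvrl1 itself (GRCm38 chr15:101128522-101145336, plus strand) had 99.3 and 59.9 CPM in WT telogen, 54.6 and 81.7 CPM in WT anagen, and 60.1 and 39.9 CPM in Alk1KO. The log2 fold change was -0.75 ± 0.30 (SE; edgeR adjusted p = 0.14), and the groups overlap. With WT telogen 1 as the single WT library it was -1.08 (adjusted p = 0.0082), with the spread taken from the Alk1KO pair. Blood endothelial cells had 193 and 170 CPM in WT telogen and 172 and 158 CPM in Alk1KO. The sources used here do not give where the deleted part lies relative to the counted 3′ end, so this level checks neither the deletion nor the labels.

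Errfi1 (chr4:150853919-150868892, plus strand) had 118 and 134 CPM in WT telogen and 930 and 967 CPM in Alk1KO, a log2 fold change of 2.89 ± 0.20 (edgeR adjusted p = 7.3e-07). It had 58.1 and 142 CPM in WT anagen, so both Alk1KO libraries lay above all 4 WT libraries. Its rise was also seen in collecting lymphatic cells, with 97.2 and 126 CPM in WT telogen and 545 and 687 CPM in Alk1KO, but blood endothelial cells held 144 and 153 CPM and then 125 and 125 CPM. The difference between capillary lymphatic and blood endothelial responses was 3.17 ± 0.19 (edgeR interaction test, adjusted p = 2.4e-08). Tsc22d3 had 62.0 and 96.9 CPM in WT telogen and 730 and 681 CPM in Alk1KO (3.15 ± 0.23, adjusted p = 1.1e-06). Other rises were in Apoe, Lcn2 and Sema3a. Apoe, a lipid carrier, had 279 and 168 CPM and then 1134 and 1041 CPM (2.22 ± 0.24). Lcn2, an iron-siderophore binding protein, had 685 and 909 CPM and then 3006 and 2560 CPM (1.79 ± 0.19). Sema3a, a repulsive guidance cue involved in lymphatic valves, had 93.1 and 74.1 CPM and then 315 and 394 CPM (2.03 ± 0.22). Each of these 3 had an edgeR adjusted p at or below 4.4e-05. The 12 largest such rises also included Serpina3n, Ppp1r2, Serinc3, Ier3, Abcg2 and Sgms1, with log2 fold changes between 1.87 and 2.33, and Serpina3n missed the threshold with DESeq2 (adjusted p = 0.0538).

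**Figure D3:**
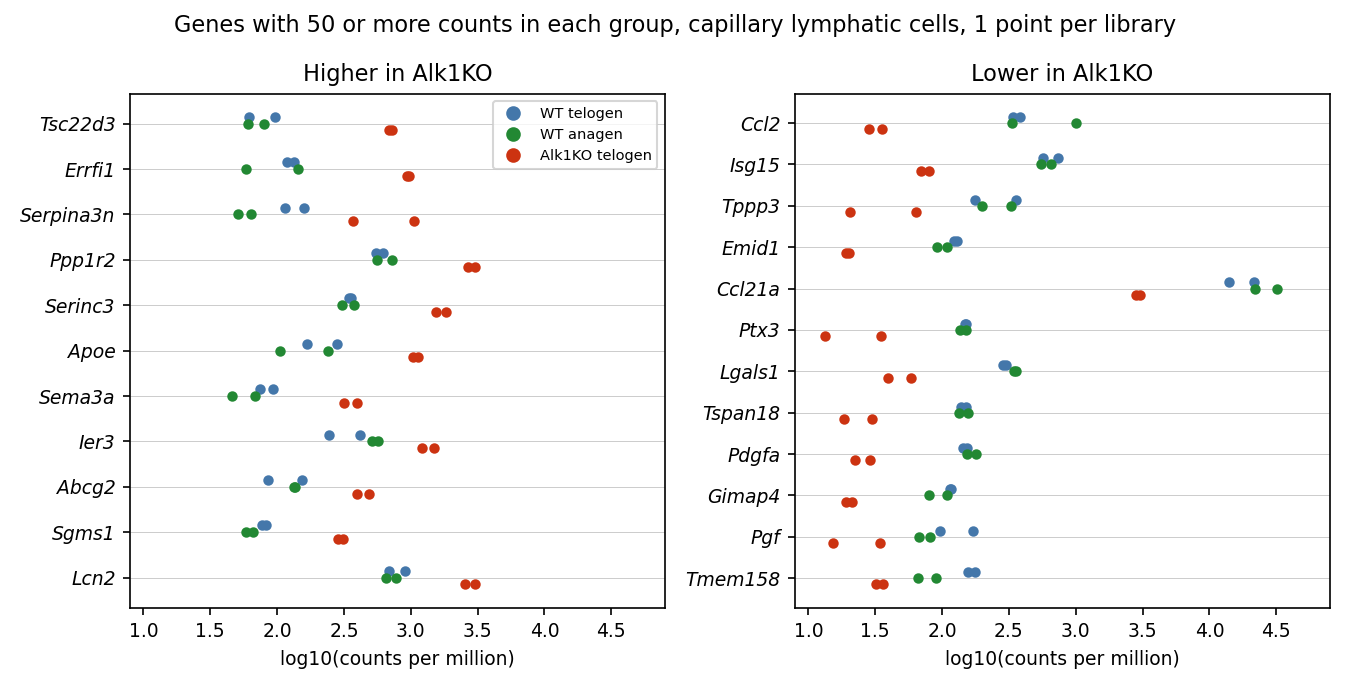
Genes from the 12 largest rises (left) and falls (right) among those called in Alk1KO with at least 50 counts in each group, in capillary lymphatic cells, as log10 CPM; each point is 1 library, and WT anagen is drawn for comparison. Both Alk1KO libraries lie outside the range of the 4 WT libraries in every gene drawn.

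Without a minimum on counts, the largest rises by fold among genes whose libraries did not overlap were mostly of genes nearly silent in WT telogen. Slc15a2, a peptide transporter, had 0 counts in WT telogen and 27.1 and 71.3 CPM in Alk1KO, which is at least 14.2-fold higher against a floor of 3 counts over the WT group. Doc2b, a calcium sensor of exocytosis, was at least 11.7-fold higher by the same floor, with 60.8 and 25.8 CPM in Alk1KO. Fmo2, a flavin monooxygenase, had 12.4 and 5.70 CPM in WT telogen and 356 and 408 CPM in Alk1KO (log2 fold change 5.27 ± 0.32, edgeR adjusted p = 2.8e-07). Apod, a lipocalin, had 20.7 and 45.6 CPM and then 739 and 776 CPM (4.55 ± 0.28, adjusted p = 2.8e-07). These are the only rises of the 12 with more than 3 counts in WT telogen. Zbtb16, a transcriptional repressor, had 3 WT counts and a ratio of 27.3 (95% counting interval 9.25 to 133), and Agt, which encodes angiotensinogen, had 2 WT counts and a ratio of 17.1 (4.64 to 143). Hamp, the iron hormone hepcidin, had 1 WT count and a ratio of 42.1 (7.44 to 1671), but 5 and 8 cells carried its 166 counts in Alk1KO. Fam107a, Esr1, Fzd9 and Nrtn, with 1 or 2 WT counts each, had ratios between 12.7 and 17.7. The calls of Slc15a2, Fmo2, Apod, Zbtb16 and Agt held without any 1 library. Doc2b, Hamp and Nrtn were lost without Alk1KO 1 (adjusted p = 0.0551, 0.0659 and 0.157), and Fam107a, Esr1 and Fzd9 without WT telogen 1 (adjusted p = 0.289, 0.201 and 0.089), Fzd9 also without WT telogen 2 (adjusted p = 0.0991).

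Ccl21a, whose chemokine attracts dendritic cells, fell in Alk1KO. The gene (chr4:42772860-42773993, minus strand) had 21463 and 14045 CPM in WT telogen, 22032 and 31747 CPM in WT anagen, and 2800 and 3026 CPM in Alk1KO. The log2 fold change was -2.65 ± 0.22 (edgeR adjusted p = 4.4e-06), and it kept its call in every alternative. The Ccl21 genes of the mouse are near-identical copies, and reads that fit several of them could be split or dropped in counting, so the value stands for this copy with that limit. In collecting lymphatic cells Ccl21a had 1946 and 1109 CPM in WT telogen and 100 and 260 CPM in Alk1KO. Ccl2 had 383 and 339 CPM and then 28.4 and 35.4 CPM (-3.53 ± 0.21, adjusted p = 2.8e-07). Isg15 had 738 and 573 CPM and then 70.1 and 79.8 CPM (-3.17 ± 0.21, adjusted p = 7.3e-07), though 239 of its 357 UMIs in WT telogen 1 came from 1 cell. Its fall was larger than in collecting lymphatic cells, by -2.39 ± 0.25 (edgeR interaction test, adjusted p = 0.000206). Blood endothelial cells showed no such fall, with 432 and 377 CPM in WT telogen and 434 and 458 CPM in Alk1KO. The difference from them was -3.26 ± 0.19 (edgeR interaction test, adjusted p = 2.2e-08). The difference from collecting lymphatic cells left the call without WT telogen 1 (-2.05, adjusted p = 0.0543). Other falls of this size were in Lgals1 (a galectin), Pdgfa (a growth factor for mesenchymal cells), Tspan18 (a tetraspanin), Gimap4, Ptx3, Emid1 and Tmem158, between -2.64 and -2.30 for those other than Emid1 at -2.70. Pgf, placental growth factor, had a change of -2.47 but -1.25 without cells holding immune UMIs and -0.83 without cells holding stromal UMIs (adjusted p = 0.102 and 0.362).

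The largest falls by fold, with no minimum on counts, included Ntng1 (a netrin-like axon guidance protein), with 16 counts in WT telogen and none in Alk1KO, at least 21.1-fold lower against a floor of 3 counts over the Alk1KO group. Its call left without either Alk1KO library (adjusted p = 0.211 and 0.152). Pcp4l1, a calmodulin-binding protein, had 161 and 143 CPM in WT telogen and 5.29 and 10.7 CPM in Alk1KO (-4.24 ± 0.31, edgeR adjusted p = 1.1e-06). Aqp1, a water channel, had 62.0 and 74.1 CPM and then 1.98 and 2.25 CPM (-4.94 ± 0.45). The interferon-induced Ifit1 had 112 and 31.4 CPM and then 2.64 and 1.12 CPM (-5.31 ± 0.65). Il33, an alarmin cytokine, had 15 counts in WT telogen and 3 in Alk1KO, a ratio of 19.7 (95% counting interval 5.58 to 106). The rest of the 12 were genes of connective tissue cells, namely Col1a1, Col1a2, Col3a1, Mfap5, Pcolce, Igfbp6 and Sfrp5. Col3a1, a fibrillar collagen, had 66.2 and 77.0 CPM in WT telogen and 6.61 and 1.12 CPM in Alk1KO. Sfrp5 left the call without WT telogen 1 (adjusted p = 0.13), Pcolce without Alk1KO 1 (adjusted p = 0.147), and Igfbp6 with DESeq2 (adjusted p = 0.094).

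Markers of other cells therefore moved with the Alk1KO comparison, and their levels are given in full. In the order WT telogen 1 and 2, WT anagen 1 and 2, Alk1KO 1 and 2, the 12 fibroblast markers summed to 441, 433, 65.2, 266, 34.4 and 10.7 CPM in the capillary lymphatic cells. Dcn, a proteoglycan, was the most abundant of them, and 102 of its 111 UMIs in WT telogen 1 came from 1 cell. All 5 fibroblast markers that could be tested were lower in Alk1KO, as were 3 of 4 perineurial markers (Itgb4, Sfrp5 and Thbs4), 2 of 2 immune markers (Cd74 and Mrc1) and 1 of 4 mural markers (Acta2). The 10 perineurial markers summed to 304, 265, 114, 211, 78.6 and 64.6 CPM, with Itgb4 the most abundant. The 20 immune markers summed to 209, 302, 350, 126, 39.0 and 60.7 CPM, led by Cd74, with Cx3cr1 at 0. The 11 mural markers summed to 120, 396, 82.8, 108, 116 and 66.8 CPM, led by Mustn1. Blood endothelial markers summed to 925, 1117, 888, 1702, 1564 and 1286 CPM, led by Emcn, and of 9 tested Emcn was higher and Aqp1 and Podxl were lower. Podxl missed the threshold without any 1 library (adjusted p between 0.0551 and 0.14), Thbs4 without either Alk1KO library (adjusted p = 0.233 and 0.269), Acta2 without WT telogen 2 or either Alk1KO library (adjusted p between 0.0574 and 0.506), and Cd74 without Alk1KO 1 (adjusted p = 0.0742). Keratinocyte markers stayed at or below 15.8 CPM with Krt1, Krt14, Krt5 and Krt79 at 0, Schwann markers at or below 29.0 CPM, and erythroid markers at or below 13.9 CPM. Leaving out every cell with a fibroblast, mural or perineurial UMI kept 54 and 40 WT telogen and 230 and 297 Alk1KO cells, in which 229 genes were higher and 282 lower. Of the 820 called genes still tested there, all kept their direction and 476 kept the call.

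**Figure D4:**
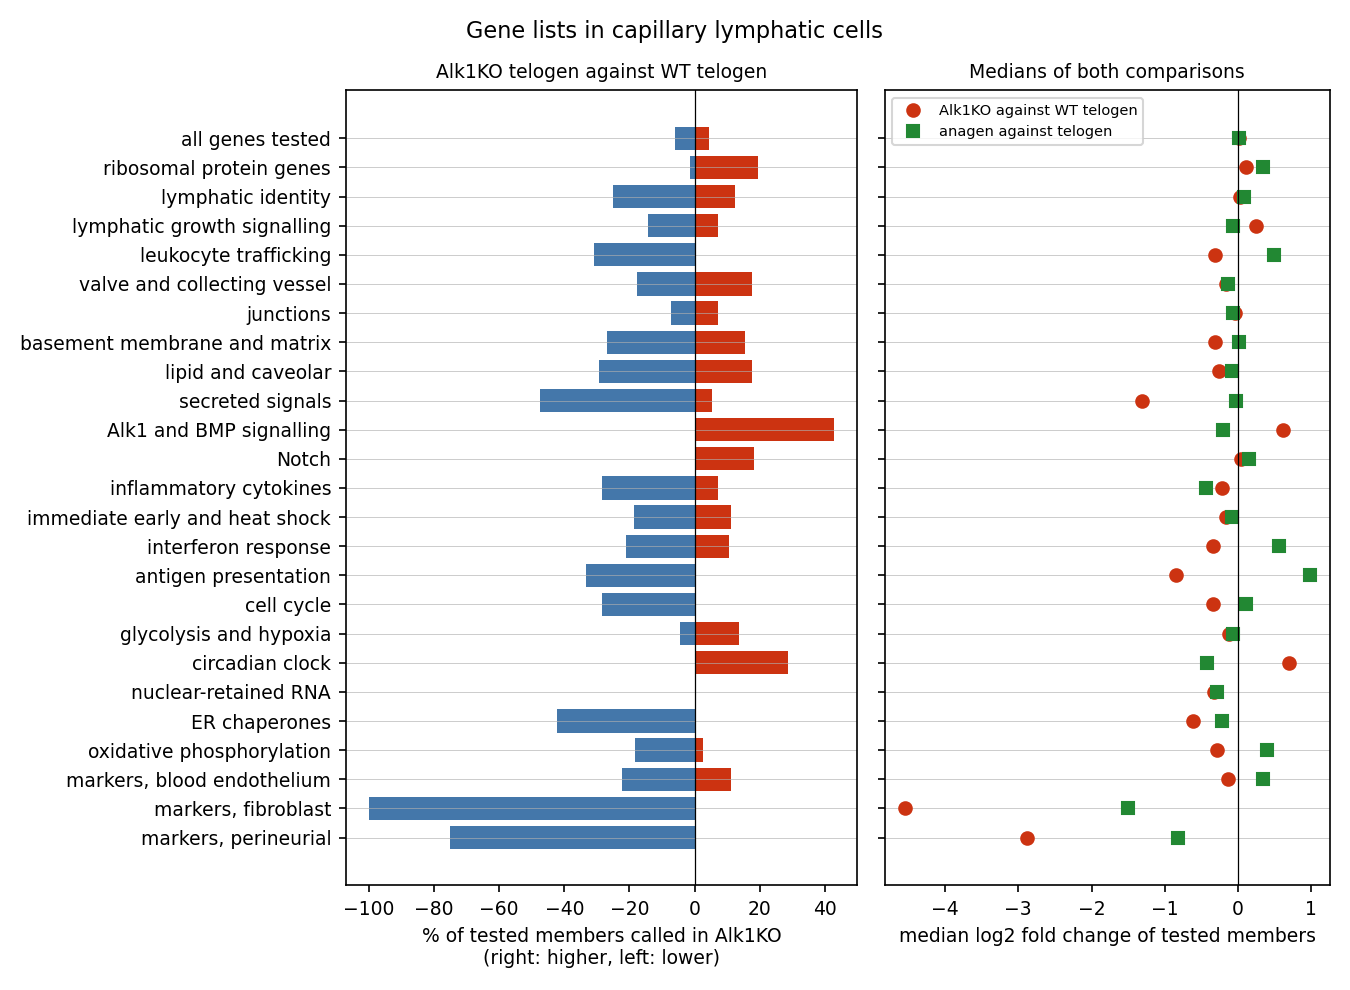
Left, percent of the tested members of each gene list called higher (right, red) or lower (left, blue) in Alk1KO; right, median log2 fold change of the tested members for Alk1KO (circles) and for anagen (squares), each against WT telogen. Over all genes, 4.5% were higher and 5.91% lower in Alk1KO; the list of secreted signals had a median of -1.31 and the list of Alk1 and BMP signalling a median of 0.62.

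Lymphatic identity genes did not move together in Alk1KO: 2 of 16 tested were higher (Nr2f2 and Cp) and 4 lower (Ccl21a, Thy1 and Tspan18 among them), with a median of 0.03. Prox1 had 534 and 502 CPM in WT telogen and 583 and 620 CPM in Alk1KO (0.18 ± 0.18, adjusted p = 0.58), and Pdpn had 350 and 268 CPM and then 188 and 295 CPM (-0.40 ± 0.23, adjusted p = 0.323). Nr2f2, which encodes the COUP-TFII partner of Prox1, had 405 and 459 CPM and then 766 and 866 CPM (0.89 ± 0.18, edgeR adjusted p = 0.0051). Thy1, an adhesion molecule of lymphatic endothelium, had 625 and 604 CPM and then 158 and 211 CPM (-1.77 ± 0.20, adjusted p = 4.8e-05). Cp missed the threshold without Alk1KO 1 (0.71, adjusted p = 0.148). The rule genes Lyve1 and Reln differed by 0.72 and 1.01 as a description.

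The counts of the following lists stand beside 4.5% higher and 5.91% lower over all genes tested. Growth signalling had 1 of 14 higher (Ramp2) and 2 lower (Nrp2 and Itga9). Ramp2, which makes the adrenomedullin receptor, had 778 and 909 CPM and then 1946 and 1570 CPM (1.04 ± 0.18), and left the call without Alk1KO 1 (0.87, adjusted p = 0.057). Nrp2, the co-receptor of VEGF-C, had 451 and 416 CPM and then 213 and 195 CPM (-1.12 ± 0.18, adjusted p = 0.0013). Its partner Flt4 is one of the genes that chose the cells, so its values, 472 and 553 CPM and then 524 and 516 CPM, are a description. Valve and collecting-vessel genes split, with 3 of 17 higher (Foxc2, Mgll and Sema3a) and 3 lower (Itga9 and Plxnd1 among them). Foxc2, the transcription factor of lymphatic valves, had 35.2 and 39.9 CPM and then 139 and 94.4 CPM (1.61 ± 0.29, adjusted p = 0.0029). Itga9, the integrin of valve leaflets, missed the threshold without any 1 of the 4 libraries (adjusted p between 0.0522 and 0.147). Among junction genes 1 of 14 was higher (Ctnna1) and 1 lower (Ctnnb1), shares near those over all genes, and both missed the threshold without WT telogen 1 or either Alk1KO library (adjusted p between 0.0605 and 0.134). Of 13 leukocyte trafficking genes 4 were lower, namely Ccl21a, Mrc1, Icam2 and Il33, and Icam2, an adhesion molecule, had 137 and 162 CPM and then 68.1 and 47.7 CPM (-1.39 ± 0.23).

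Secreted signals had 1 of 19 higher (Tgfb1) and 9 lower, with a median of -1.31. Pdgfa had 143 and 154 CPM and then 29.1 and 22.5 CPM (-2.55 ± 0.24), and the insulin-like growth factor binding protein Igfbp7 had 401 and 522 CPM and then 110 and 104 CPM (-2.12 ± 0.19). The count was 5 of 17 lower without cells holding stromal UMIs and 5 of 20 without WT telogen 1. In the basement membrane and matrix list 4 of 26 were higher and 7 lower. The collagens Col18a1, Col4a1 and Col4a2 were among the lower ones, as was Sparc, a collagen-binding glycoprotein, with 323 and 405 CPM and then 94.5 and 84.8 CPM (-2.04 ± 0.19). Timp3, an inhibitor of matrix proteases, was higher, with 1262 and 1516 CPM and then 3831 and 3287 CPM (1.33 ± 0.18), and so was Tgfbi (1.63 ± 0.22). Lipid and caveolar genes had 3 of 17 higher (Apoe, Lpl and Abca1) and 5 lower (Cav1, Cavin3, Fabp4 and Fabp5 among them). Several of these calls rested on single libraries. Without WT telogen 1, those of Abca1, Cav1, Fabp4, Col4a1 and Col4a2 were lost (adjusted p between 0.0611 and 0.275), without WT telogen 2 those of Tgfb1, Lpl, Abca1 and Cavin3 (between 0.0828 and 0.216), without Alk1KO 1 those of Tgfb1, Lpl, Abca1, Cav1, Cavin3, Col4a1 and Col4a2 (between 0.0896 and 0.34), and without Alk1KO 2 those of Cav1 and Fabp4 (0.186 and 0.296). Without cells holding stromal UMIs, the change of Lpl was 0.26 (adjusted p = 0.731), and Abca1, Tgfb1 and Col4a1 left the call (0.58, 0.61 and -0.77, adjusted p = 0.145, 0.113 and 0.0907).

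In the list of Alk1 and BMP signalling, 6 of 14 tested genes were higher in Alk1KO and none lower, with a median of 0.62. They were the receptor subunits Bmpr2 and Eng, the inhibitory SMADs Smad6 and Smad7, and the target genes Id1 and Hey1. Bmpr2 had 97.2 and 162 CPM in WT telogen and 314 and 263 CPM in Alk1KO (1.16 ± 0.23, edgeR adjusted p = 0.0044). Eng, the Alk1 co-receptor endoglin, had 186 and 217 CPM and then 337 and 426 CPM (0.90 ± 0.20, adjusted p = 0.0084). The groups did not overlap in either, as in 54.6% of all genes tested in this comparison. Smad7 had 10.3 and 22.8 CPM and then 56.2 and 68.0 CPM (1.95 ± 0.37, adjusted p = 0.0038). Id1 had 219 and 208 CPM and then 390 and 308 CPM (0.67 ± 0.20, adjusted p = 0.0428). It lost the call in 9 of 15 alternatives, among them without WT telogen 2 (0.58, adjusted p = 0.114), without Alk1KO 1 (0.49, adjusted p = 0.322) and without cells holding stromal UMIs (0.49, adjusted p = 0.215). Smad6 (chr9:63953076-64022059, minus strand) had 0 counts in WT telogen and was at least 4.48-fold higher in Alk1KO against a floor of 3 counts over the WT group, with its counts in 13 of 263 and 9 of 313 cells. None of the 14 passed without WT telogen 1, the WT telogen library that shares Xist with Alk1KO, although the median was then 0.78. Without Alk1KO 1, 2 of 12 were higher, without cells holding stromal UMIs 2 of 13, and with DESeq2 3 of 14.

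The 250 bases before the start of 3 of these 6 genes, called higher in Alk1KO, are printed as given by RefSeq for GRCm38.p6. They show what lies upstream of receptor and inhibitor genes. The rest of the 6 had no entry used here. Capitals mark GGCGCC, a GC-rich SMAD motif, and CAGAC or its reverse complement GTCTG, the SMAD box, searched on both strands. The intervals are chr2:32646345-32646594 (plus strand) for Eng, chr1:59764029-59764278 (plus strand) for Bmpr2 and chr9:64022060-64022309 (minus strand) for Smad6.
Eng: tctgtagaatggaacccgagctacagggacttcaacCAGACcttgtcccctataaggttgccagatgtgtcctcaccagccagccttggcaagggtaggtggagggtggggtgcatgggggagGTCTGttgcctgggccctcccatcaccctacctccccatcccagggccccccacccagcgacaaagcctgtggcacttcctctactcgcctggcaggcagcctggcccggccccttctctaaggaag
Bmpr2: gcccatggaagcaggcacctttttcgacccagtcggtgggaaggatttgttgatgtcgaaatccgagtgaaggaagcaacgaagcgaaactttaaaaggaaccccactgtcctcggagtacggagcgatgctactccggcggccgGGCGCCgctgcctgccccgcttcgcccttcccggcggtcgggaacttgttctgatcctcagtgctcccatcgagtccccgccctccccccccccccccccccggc
Smad6: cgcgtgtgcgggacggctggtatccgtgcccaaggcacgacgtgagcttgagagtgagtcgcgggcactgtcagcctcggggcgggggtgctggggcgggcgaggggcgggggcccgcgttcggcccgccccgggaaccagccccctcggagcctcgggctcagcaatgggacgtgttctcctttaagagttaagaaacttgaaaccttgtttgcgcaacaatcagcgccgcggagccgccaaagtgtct
Eng held 2 SMAD boxes, 214 and 127 bases before the start, Bmpr2 held 1 GGCGCC, 105 bases before it, and Smad6 held neither motif in this window. Of 32851 promoters of the same length, 42.2% held a SMAD box and 9.59% held GGCGCC, so matches of this kind are common, and a match is not a measured binding site.

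Of 19 tested ER chaperones, 8 were lower and none higher, with a median of -0.62. Calr, the calcium-binding chaperone calreticulin, had 678 and 681 CPM and then 221 and 226 CPM (-1.63 ± 0.18, edgeR adjusted p = 4.6e-05), and Hsp90b1 had 685 and 724 CPM and then 284 and 292 CPM (-1.32 ± 0.18). Without Alk1KO 1, 4 of 19 were lower. Among inflammatory cytokines 1 of 14 was higher (Nfkbiz) and 4 lower (Ccl2, Ccl7, Il33 and Nfkb1). For Ccl7, 112 of the 156 UMIs in WT telogen 1 came from 1 cell. The median of this list was -0.22, and 0.31 without WT telogen 1. In the interferon list 2 of 19 were higher (Irf1 and Ifitm2) and 4 lower (Isg15, Ifit1, Gbp2 and Bst2). Antigen presentation had 5 of 15 lower, led by class II genes, and H2-K1 had 600 and 904 CPM and then 269 and 277 CPM (-1.48 ± 0.20). H2-Eb1, H2-Aa and Cd74 left the call without Alk1KO 1 (adjusted p = 0.176, 0.0776 and 0.0742), when 1 of 15 was lower, and H2-Aa also without WT telogen 2 (adjusted p = 0.162). Gbp2 and Nfkbiz missed the threshold without any 1 library (adjusted p between 0.0578 and 0.27), Bst2 and Ifitm2 without Alk1KO 1 (adjusted p = 0.113 and 0.0579) and Irf1 without WT telogen 1 (adjusted p = 0.0536).

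Stress, growth and metabolic lists were mixed. Of 27 immediate early and heat shock genes, 3 were higher (Egr1, Fos and Ier3) and 5 lower (Atf3, Dnajb1, Hsp90aa1, Hspa1a and Hspa1b). Atf3 and Dnajb1 left the call without WT telogen 1 (-0.26 and -0.71, adjusted p = 0.573 and 0.153), and Atf3 and Hsp90aa1 without Alk1KO 1 (adjusted p = 0.271 and 0.0577). Fos had 1775 and 1779 CPM and then 3499 and 3700 CPM (0.99 ± 0.17, adjusted p = 0.0017). Among cell cycle genes 4 of 14 were lower (Ccnd1, Stmn1, Top2a and Mcm5) and none higher. Ccnd1, the cyclin of G1 entry, had 151 and 228 CPM in WT telogen and 13.9 and 10.1 CPM in Alk1KO (-3.99 ± 0.28, adjusted p = 7.3e-07), and 25 of 88 and 34 of 81 cells held its UMIs in WT telogen against 14 of 263 and 13 of 313. Top2a, of the mitotic chromosome, left the call without WT telogen 2 or either Alk1KO library (adjusted p = 0.219, 0.339 and 0.355), and Mcm5 without WT telogen 2 (adjusted p = 0.152). Circadian clock genes had 4 of 14 higher (Tef, Nr1d1, Nr1d2 and Bhlhe40) and none lower, with a median of 0.69. Nr1d1, a clock repressor, left the call without WT telogen 1 or 2 or Alk1KO 1 (adjusted p = 0.0985, 0.129 and 0.208), Tef without WT telogen 1 (adjusted p = 0.0943), Nr1d2 without WT telogen 2 (adjusted p = 0.123), and Bhlhe40 without WT telogen 2 or Alk1KO 1 (adjusted p = 0.0887 and 0.284). Glycolysis and hypoxia genes had 3 of 22 higher (Bnip3, Ddit4 and Gapdh) and 1 lower (Tpi1). Gapdh and Tpi1 left the call without WT telogen 1 (adjusted p = 0.105 and 0.1) or Alk1KO 1 (0.191 and 0.109), and Gapdh without WT telogen 2 (0.107). Ddit4, an inhibitor of mTOR signalling, had 110 and 180 CPM and then 515 and 351 CPM (1.58 ± 0.25). Of 76 oxidative phosphorylation genes 2 were higher (Ndufa6 and Cox7a2l) and 14 lower with a median of -0.29, but without Alk1KO 1 none was called either way. Cox7a2l also missed the threshold without WT telogen 1 or Alk1KO 2 (adjusted p = 0.139 and 0.0504). Notch genes had 2 of 11 higher (Dll1 and Hey1), and neither held without Alk1KO 1 (adjusted p = 0.071 and 0.108), Dll1 also not without WT telogen 2 (0.283) and Hey1 not without WT telogen 1 (0.164). Of 77 ribosomal protein genes, counted after the values were seen, 15 were higher and 1 lower (Rpsa, which missed the threshold without WT telogen 1 or either Alk1KO library, adjusted p between 0.0767 and 0.269).

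The difference between Alk1KO and WT telogen was not the same as in collecting lymphatic cells in 43 of 9736 genes (0.442%), of which 11 were more positive and 32 more negative here. None was called without WT telogen 1. The largest positive differences included those of Igf1 and Tes. Igf1, a growth factor, had 55.8 and 79.8 CPM and then 27.8 and 40.4 CPM in capillary lymphatic cells, but fell from 80.8 and 126 CPM to 4.17 and 3.09 CPM in collecting lymphatic cells (difference 3.87 ± 0.47, edgeR interaction test, adjusted p = 0.001). Tes, a focal adhesion protein, had 16.5 and 22.8 CPM and then 64.8 and 53.4 CPM here, and 55.6 and 49.9 CPM and then 29.2 and 39.2 CPM there (2.21 ± 0.42, adjusted p = 0.0136), and it also left the call without WT telogen 2 (2.45, adjusted p = 0.197). The largest negative differences included those of Spp1 and Ccnd1. Spp1, the secreted glycoprotein osteopontin, had 13 counts here in WT telogen and 1 in Alk1KO. Ccnd1 had 9.95 and 26.5 CPM there in WT telogen and 11.1 and 12.4 CPM in Alk1KO, and the difference was -3.41 ± 0.54 (-3.11 without Alk1KO 2, adjusted p = 0.0501).

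Against blood endothelial cells the Alk1KO difference was not the same in 355 of 11578 genes (3.07%), of which 170 were more positive and 185 more negative here. The largest differences by fold were in Rgs4, Steap4 and Sema5a on the positive side and Ccn5, Kcnj2 and Wfdc1 on the negative side. These genes held at most 24 counts in either group of the capillary lymphatic cells. Sema5a left the call without WT telogen 1, WT telogen 2 or Alk1KO 1 (adjusted p between 0.062 and 0.0745), Ccn5 without WT telogen 2 or Alk1KO 2 (adjusted p = 0.251 and 0.138), and Kcnj2 without WT telogen 1 (-2.43, adjusted p = 1). Without the cells holding stromal marker UMIs, Kcnj2 left the call (-6.68, adjusted p = 0.297) and Wfdc1 turned to 1.34 (adjusted p = 1). Among genes with 50 counts in each group, chosen after the values were seen, Errfi1 and Isg15 are described above. Pgf had 170 and 96.9 CPM and then 15.2 and 34.3 CPM here, while blood endothelial cells went from 29.0 and 51.8 CPM to 338 and 506 CPM (difference -5.91 ± 0.40, adjusted p = 7.6e-08). Sned1, a matrix protein, had 232 and 279 CPM and then 231 and 197 CPM here, and 13.8 and 15.8 CPM and then 155 and 164 CPM in blood endothelial cells (-3.68 ± 0.22, adjusted p = 2.4e-08). Igfbp5 had 509 and 607 CPM and then 728 and 571 CPM here, and 122 and 146 CPM and then 17.0 and 6.22 CPM there (3.76 ± 0.25), but the difference was -0.52 (adjusted p = 0.746) without the cells of either class that held stromal marker UMIs.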

How the data were processed

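Capillary lymphatic cells were taken from single-cell RNA-seq (Chromium 3′) of tdTomato+ cells from 6 libraries. The deposited UMI counts are raw counts per gene and cell barcode (32285 genes) made by the authors. Cell Ranger 6.0.1 and the build mm10 are named in the submitters' processing notes, which also name Seurat 4.0. Every barcode in the files held at least 500 UMIs. Cells were scored by the rule given above. No doublet caller was run and no free RNA was removed. Counts were summed per library and class, filtered by filterByExpr, scaled by TMM and tested with edgeR 4.0.16 in R 4.3.3 (quasi-likelihood, Benjamini-Hochberg). Calls needed a fold over 1.3 beside an adjusted p below 0.05, and genes of the 6 score sets and the gate were left out of the counts of calls. Differences in response were tested as a class by group term with the library as a block. DESeq2 1.42.0, other scalings, filters, cell filters, thinning and leaving out each library were alternatives. The step was tested on simulated data, but the outcome is not given here.

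Genes named were the 12 largest rises and falls called with no overlap between libraries, up to 4 genes of smallest p per list, the identity list, Acvrl1 and the 3 largest interaction terms in each direction. The larger-count genes and those named because a count was small were added after the values were seen. The members, gene lists and tests were chosen with earlier results of these data known. Replicates are 1 mouse each. Shares carry counting error that exact binomial intervals (95%) would cover, and intervals and floors cover counting error only. Antisense and overlapping genes were not separated. Gene positions are from GENCODE vM21 (GRCm38). Some genes are not reported here.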

Additional observations from a re-analysis of the deposited data

Results flagged for a closer look

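The results below drew attention because the response of the capillary lymphatic cells differed from that of another endothelial class of the same libraries by an interaction test (edgeR, adjusted p under 0.05). Values are the difference of log2 fold changes, capillary lymphatic minus the other class.

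For anagen against telogen, the difference from collecting lymphatic cells was -8.89 for Rgs5 (with 66 counts at telogen, 65 of them in 1 cell) and -4.08 for Cxcl2. From blood endothelial cells it was 2.27 for Scn3a, 2.17 for Igfbp5, 2.07 for Gucy1b1, -2.69 for Cxcl2 and -1.99 for Cd14.

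For Alk1KO against WT telogen, the difference from collecting lymphatic cells was 3.87 for Igf1, 2.21 for Tes, 1.80 for Mgll, -5.49 for Spp1, -3.41 for Ccnd1, -2.92 for Ccn2 and -2.39 for Isg15. Each of these left the call without WT telogen 1. From blood endothelial cells it was 11.5 for Rgs4, 9.93 for Steap4, 9.02 for Sema5a, 3.76 for Igfbp5, 3.17 for Errfi1, -10.1 for Ccn5, -8.41 for Kcnj2, -6.78 for Wfdc1, -5.91 for Pgf, -3.68 for Sned1 and -3.26 for Isg15. Rgs4, Steap4 and Sema5a had 0 counts in the capillary lymphatic cells of WT telogen, and Ccn5, Kcnj2 and Wfdc1 had 0 in those of Alk1KO, so the sizes of these 6 depend on the prior count of the fit. Mgll and Ccn2, like Isg15, were named after their values were seen.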

How the results depend on the processing

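For anagen, counts of genes higher and lower were 12 and 2 with DESeq2, 8 and 5 with scaling by library size, 83 and 36 with no filter on low counts, 1 and 2 under the stricter cell filter, 8 and 3 without cells holding immune UMIs, 18 and 5 with all 6 libraries in one fit, 0 and 0 without cells holding stromal UMIs (an alternative chosen after seeing the data), and 17 to 115 and 12 to 56 without each library. Without WT anagen 1 the changes of H2-D1, H2-K1 and Cd74 turned to -0.13, -0.065 and -3.23, and without WT anagen 2 they were 1.67, 1.57 and 2.37. For Alk1KO the counts were 161 and 230 with DESeq2, 581 and 536 with no filter, 234 and 334 without immune UMIs, 229 and 282 without stromal UMIs, and 174 to 439 and 207 to 487 without each library. Scaling by library size, a score of at least 3 and thinning moved the Alk1KO counts by less than 1.5 times.

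The stage interaction counts against collecting lymphatic and blood endothelial cells, 3 and 15, were 1 and 3 with DESeq2, 32 and 37 with no filter, 9 and 2 without stromal UMIs, 3 and 7 without immune UMIs, and 5 to 49 and 5 to 82 without each library. Those for Alk1KO, 43 and 355, were 17 and 110 with DESeq2, 135 and 592 with no filter, 40 and 556 at a score of at least 3, 39 and 230 without stromal UMIs, and 0 to 56 and 300 to 464 without each library. Without stromal UMIs the differences from blood endothelial cells turned to -0.23 for Scn3a (stage), and 1.34 for Wfdc1 and -0.52 for Igfbp5 (Alk1KO). The difference in member share between Alk1KO and WT telogen was 15.4 points, 16.6 without immune UMIs and 0.138 for cells with no UMI of any other set (1 to 6 cells per library, too few to fit). Causes were not tested where the construction of the alternative does not show them.

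Replicate numbers did not pair the libraries (correlation of deviations -0.0092 for stage and -0.0003 for Alk1KO). With the number as a replicate block the counts were 23 and 5 at anagen, Uqcr10 and Sox18 among those higher (1.06 and 1.21, adjusted p = 0.0499 each), and 526 and 630 in Alk1KO. The 80 to 97 cells per WT library limit what can be detected for genes with few counts.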
